A study of Mus musculus with 6 samples.

Results

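Genes that glucocorticoids or fasting are known to control were followed in the lungs of endotoxaemic mice given recombinant human thrombomodulin (rhTM), an anticoagulant protein. The 10 genes, of 16366 genes tested, were taken by name, by a rule that uses no measured value, with earlier results of these data known: Nr3c1, Hsd11b1, Fkbp5, Tsc22d3, Zbtb16, Sgk1, Pdk4, Angptl4, Txnip and Cdkn1a. All 6 mice were male C57BL6 mice aged 10 weeks that were starved for 16 h and then received LPS, the bacterial endotoxin, at 20 mg/kg i.p. Chow was freely available before and after the starvation. Saline (3 mice) or rhTM (3 mice) was injected 3 and 24 h after LPS, and lung RNA was taken at 30 h and hybridised to 1-colour Agilent expression arrays, 1 array per mouse. Starvation and LPS were shared by both groups, and mice without them were not analysed here. The comparison therefore addressed only rhTM against saline after LPS.

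Cortisol and corticosterone bind the glucocorticoid receptor, which then enters the nucleus and switches on target genes while damping many inflammatory genes. Fasting raises glucocorticoids and lowers insulin, which frees FOXO factors from inhibition, and the fatty acids released from fat activate PPAR receptors. In the lung, glucocorticoids are known for maturing the alveolar epithelium and for restraining inflammation.

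Of the 10 genes, 7 have promoters in the RefSeq table used here (assembly GRCm38.p6), 15 promoters in all, each holding 250 bases before and 50 after a transcript start. Both strands were searched for the core of the glucocorticoid response element (GNACA and TGTNC, 3 bases apart), a FOXO site (GTAAACA) and the carbohydrate response element (CACGNG and CNCGNG, 5 bases apart), which overlapped nowhere in the promoters shown. These motifs occurred in 0.475%, 3.65% and 0.365% of 32851 promoters. The promoters of Sgk1 and Txnip are shown because they were the 2 of the 15 that held the glucocorticoid core, with matches in capitals. That of Sgk1 lies at chr10:21993640-21993939 on the plus strand and is 1 of 6 promoters listed for the gene, and that of Txnip lies at chr3:96557707-96558006 on the plus strand.
Sgk1: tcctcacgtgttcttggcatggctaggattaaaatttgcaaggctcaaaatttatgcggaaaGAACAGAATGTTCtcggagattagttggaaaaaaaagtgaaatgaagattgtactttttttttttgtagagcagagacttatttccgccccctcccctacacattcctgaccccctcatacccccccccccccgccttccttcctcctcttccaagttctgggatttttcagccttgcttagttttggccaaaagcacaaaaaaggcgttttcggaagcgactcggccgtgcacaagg
Txnip: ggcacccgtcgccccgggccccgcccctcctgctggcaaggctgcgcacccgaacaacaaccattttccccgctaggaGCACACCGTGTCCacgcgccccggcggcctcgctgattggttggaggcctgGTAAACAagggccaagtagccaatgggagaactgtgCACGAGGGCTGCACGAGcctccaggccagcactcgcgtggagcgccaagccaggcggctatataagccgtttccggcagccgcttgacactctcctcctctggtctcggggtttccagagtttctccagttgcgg
The core began 188 bases before the start in Sgk1 (GAACAGAATGTTC) and 172 bases before it in Txnip (GCACACCGTGTCC). The Txnip promoter also held the FOXO site 121 bases and the carbohydrate response element 85 bases before the start, and the Hsd11b1 promoter held a FOXO site 138 bases before its start. These matches describe letters only, and binding was not measured.

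Array quality and labels bear on every value. Between 36252 and 40828 of 56605 probes were well above background per array. The spike-in slope, which checks the linearity of each array, was 0.826 on the array of saline-treated mouse 1, which Feature Extraction marked as out of range, and 1.07 to 1.09 on the other 5. The authors' table of processed values matched the scanner output within 0.1% for over 99.9% of probes, but the column of saline-treated mouse 1 held the array of rhTM-treated mouse 2 (99.92% of probes) and the reverse (99.95%). Which assignment is right cannot be told here. The scanner output was followed, and values under the authors' assignment are given for each of the 10 genes and, for genes of related lists, where a direction turns or an overlap changes. The arrays lay on 2 slides, with saline-treated mouse 1 and rhTM-treated mouse 3 on slide 2 and the other 4 on slide 1. Surfactant genes of alveolar type 2 cells were among the brightest (6 of 6 markers above background on all arrays), whereas Alb, Apoa1 and Ttr, 3 of the 4 markers of hepatocytes, did not pass the background filter and the other, Serpina1a, passed it at 0.0300 to 0.0525 times the 75th percentile. In each of the 14 lists of cell type markers, the summed signal overlapped between groups and no marker passed the adjusted test. In whole lung, a change in cell number and a change in RNA per cell cannot be told apart.

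No difference between rhTM-treated and saline-treated mice was called for any of the 10 genes. All 10 were well above background on all 6 arrays, and 0 passed limma with Benjamini-Hochberg adjustment over all genes (adjusted p = 0.9999 for each), beside 0.0% of the 16366 genes tested. At an unadjusted p under 0.05, 0 of the 10 passed, beside 1.87% of all genes. The groups overlapped for all 10, whereas 5.52% of all genes had no overlap. Mean signal was higher with rhTM for 7 genes and lower for 3. The 95% intervals held all 10 within a 2-fold change in either direction, and 8 within 1.5-fold, the exceptions being Sgk1 and Pdk4. The median log2 fold change of the 10 was 0.04, against 0.0026 for all genes, and the median size of the change was 0.08 against 0.11.

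**Figure D1:**
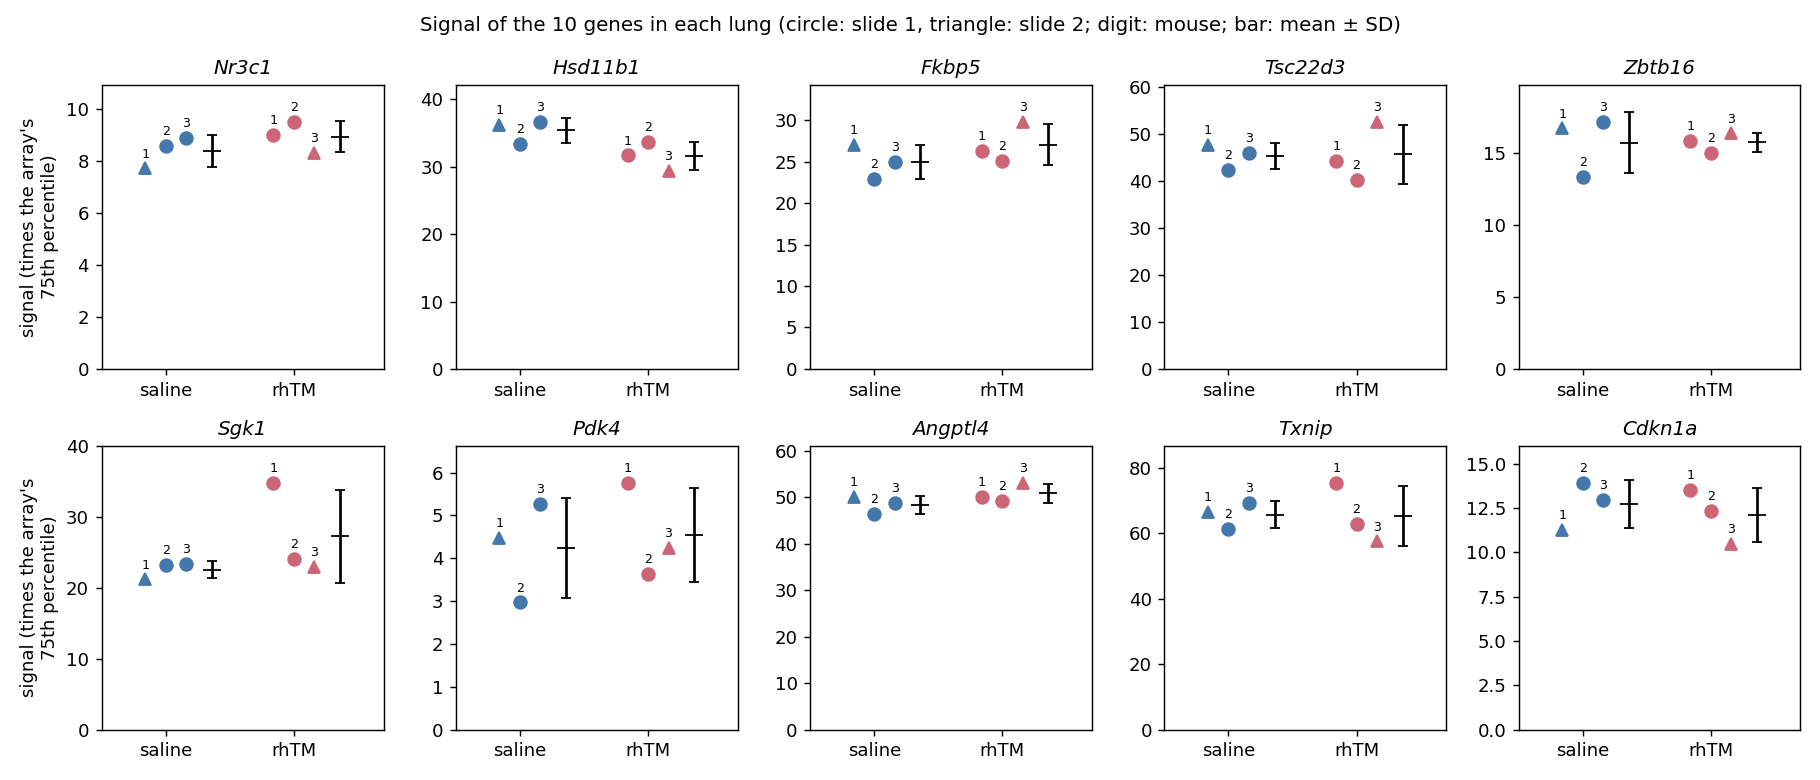
Signal of each gene in each lung, as multiples of the 75th percentile of its array, for 3 saline-treated and 3 rhTM-treated mice. Circles are slide 1, triangles slide 2, digits name the mouse, and bars show mean ± SD; the groups overlap for all 10 genes, and rhTM-treated mouse 1 stands highest for Sgk1.

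Nr3c1 and Hsd11b1 set how much hormone signal a cell can receive. Nr3c1 encodes the glucocorticoid receptor. Its signal, given like all signals below as multiples of the 75th percentile of the array, was 7.70, 8.57 and 8.87 in saline-treated mice 1 to 3 and 8.98, 9.48 and 8.29 in rhTM-treated mice 1 to 3. The groups overlapped, and the log2 fold change was 0.09 (SE 0.12), a fold of 0.871 to 1.30 in the 95% interval. By the authors' table the log2 fold change turned to -0.11 (SE 0.11).

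Hsd11b1 encodes the enzyme that regenerates active glucocorticoid from its inert form inside cells. Its signal was 36.2, 33.3 and 36.6 with saline and 31.7, 33.7 and 29.4 with rhTM. Only saline-treated mouse 2 fell within the rhTM range, and the mean was 35.4 ± 1.80 against 31.6 ± 2.14 (SD, n = 3 each). The log2 fold change was -0.17 (SE 0.12, fold 0.736 to 1.08), with -0.10 within slide 1 and -0.30 within slide 2, where 1 mouse of each group was compared. The authors' values gave -0.10 (SE 0.12). It was 1 of 3 genes, with Fkbp5 and Angptl4, whose direction turned under none of the 24 alternatives. Of these, 19 could move the value of at least 1 of the 10 genes. Probe averaging could not move Hsd11b1 or Angptl4, which had 1 probe each.

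The second probe for Nr3c1 behaved unlike the first. It gave 7.22, 3.28 and 3.58 with saline and 4.15, 3.49 and 7.59 with rhTM. Both arrays of slide 2 stood well above the other 4, regardless of treatment. The slide difference was 1.04 on the log2 scale (SE 0.13, limma adjusted p = 0.0255 over 36061 probes, in a comparison added after seeing the data), whereas the brighter probe gave -0.17 (SE 0.11, limma adjusted p = 0.498). It was the only 1 of the 16 probes of the 10 genes called between slides, beside 1.79% of all probes (621 higher and 26 lower on slide 2). Because the authors' table places both arrays of slide 2 in the rhTM group, this probe there read 3.45 ± 0.16 with saline and 6.32 ± 1.89 with rhTM (SD, n = 3 each), without overlap. Its log2 fold change was then 0.82 (SE 0.24, limma adjusted p = 0.344), against 0.13 (SE 0.39) in the scanner output. The part of the slide in that difference was not tested. At the gene level none of the 10 was called between slides (limma adjusted p 0.275 to 0.967), beside 1.42% of genes.

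**Figure D2:**
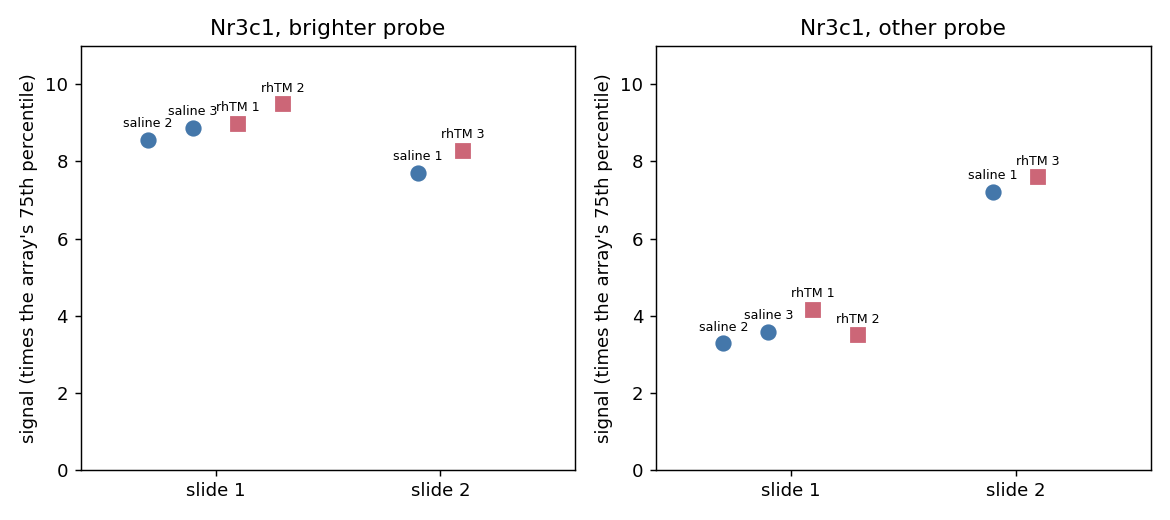
Signal of the 2 Nr3c1 probes on each array, as multiples of the 75th percentile, by slide (circles saline, squares rhTM). The other probe reads 7.22 and 7.59 on slide 2 and 3.28 to 4.15 on slide 1, while the brighter probe lies between 7.70 and 9.48 throughout.

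No difference was called for the 4 targets of the receptor, Fkbp5, Tsc22d3, Zbtb16 and Sgk1. Fkbp5, a co-chaperone that lowers the affinity of the receptor for hormone in a negative feedback, gave 27.1, 22.9 and 25.0 with saline and 26.3, 25.2 and 29.8 with rhTM. The lowest value was a saline-treated mouse and the highest an rhTM-treated mouse, with the rest intermixed. The log2 fold change was 0.12 (SE 0.13, fold 0.876 to 1.34), and 0.04 without rhTM-treated mouse 3 or 0.05 without saline-treated mouse 2. By the authors' table every rhTM value exceeded every saline value (log2 fold change 0.19, SE 0.10, exact permutation p = 0.10, the smallest that 3 against 3 allows), where 9.68% of genes were higher without overlap. Of the 10 genes, 2 (Fkbp5 and Angptl4) had no overlap in that table, beside 21.7% of genes in either direction.

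Tsc22d3 encodes GILZ, a leucine zipper protein that carries part of the anti-inflammatory action of glucocorticoids. Its signal was 47.7, 42.5 and 46.1 with saline and 44.3, 40.2 and 52.6 with rhTM. The rhTM-treated mice held both the lowest and the highest value, and the log2 fold change was 0.0032 (SE 0.14, fold 0.795 to 1.26), or 0.17 (SE 0.11) in the authors' values. Zbtb16, a zinc finger transcription factor strongly induced by glucocorticoids, gave 16.7, 13.3 and 17.2 with saline and 15.8, 15.0 and 16.4 with rhTM. All rhTM values lay inside the saline range (log2 fold change 0.0087, SE 0.14, fold 0.800 to 1.27), and the authors' values gave 0.11 (SE 0.12). Dimmer second probes gave log2 fold changes of 0.18 (SE 0.15) for Fkbp5, -0.0005 (SE 0.18) for Tsc22d3, -0.08 (SE 0.17) for Zbtb16 and -0.15 (SE 0.12) for Cdkn1a. In the authors' values these were -0.11 (SE 0.15), 0.03 (SE 0.18), 0.18 (SE 0.14) and -0.03 (SE 0.12), so the 2 Fkbp5 probes differed in direction there.

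Sgk1, a kinase that supports sodium channels and is induced by glucocorticoids and mineralocorticoids, had the largest log2 fold change of the 10 in the scanner output, and Pdk4 in the authors' values. Its signal was 21.2, 23.2 and 23.3 with saline and 34.9, 24.1 and 23.0 with rhTM. A single lung, that of rhTM-treated mouse 1, stood apart from 5 that lay between 21.2 and 24.1. The log2 fold change was 0.25 (SE 0.18, fold 0.879 to 1.60), and 0.06 without that mouse. In the authors' values it was 0.13 (SE 0.19), and -0.09 without that mouse. With slide as a block, which there sets that mouse alone against saline, the authors' values gave 0.56. The same lung had the highest summed signal of the 4 platelet markers, 27.0 against 10.0 to 14.5 in the other 5, and of the 5 endothelial markers, 138 against 89.5 to 109. The lists were not uniform in it: Pf4, Ppbp and Gp9 were highest there but Itga2b was not, and Cldn5, Kdr and Cdh5 were highest while Pecam1 and Tie1 were the lowest of the 6 lungs. The sums of neutrophil (1128 against 879 to 1045) and macrophage markers (319 against 266 to 315) were also highest in it, and those of T cell (4.51 against at most 4.50) and B cell markers (4.77 against at most 4.74) by little. Not all their members followed, with Cd68, Adgre1 and Ms4a1 lowest in this lung. The sums of alveolar type 2 (1271 against 1291 to 1758) and adipocyte markers (8.68 against 10.3 to 13.8) were lowest in this lung. Of these markers, Sftpd and Lep were highest in it. The part of these cell types in the Sgk1 value was not tested.

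**Figure D3:**
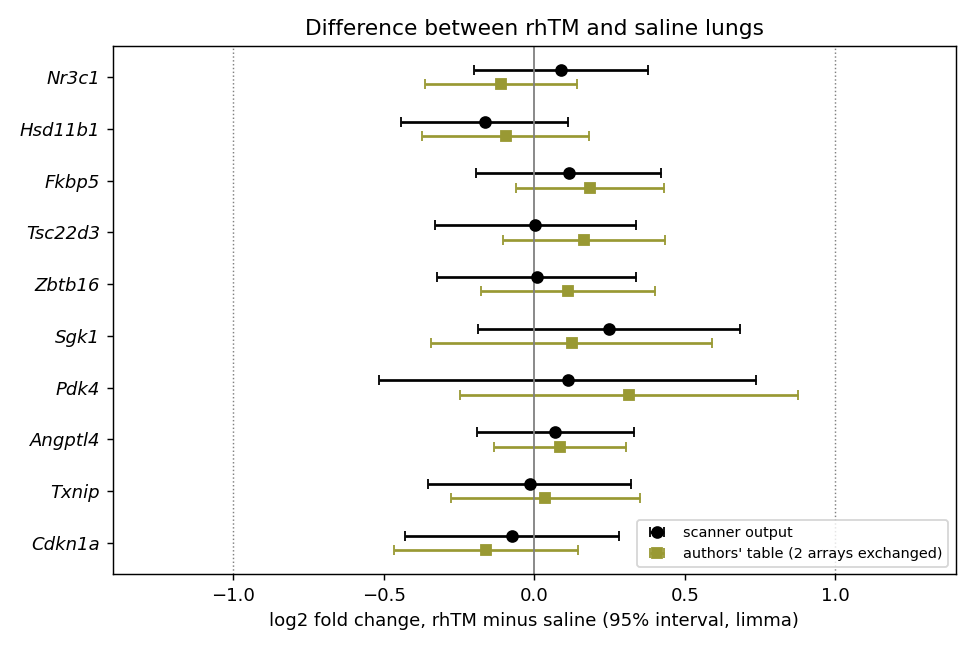
Log2 fold change of each gene, rhTM minus saline, with its 95% interval from limma, by the scanner output (circles) and by the authors' table with 2 arrays exchanged (squares). All intervals cross 0 and stay within the dotted lines at a 2-fold change.

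Pdk4 and Angptl4 are genes that fasting raises through PPAR receptors and glucocorticoids. Pdk4, a kinase that shuts pyruvate dehydrogenase so that cells burn fat in place of glucose, gave 4.48, 2.97 and 5.28 with saline and 5.77, 3.63 and 4.24 with rhTM. Both groups spread widely, the highest lung reading 1.94 times the lowest, and the residual SD of 0.39 (log2) was larger than that of 82.6% of genes. The log2 fold change was 0.11 (SE 0.26, fold 0.700 to 1.67). In the authors' values it was 0.31 (SE 0.23, limma adjusted p = 0.550). Single arrays moved it: the scanner value was -0.13 without saline-treated mouse 2 and -0.07 without rhTM-treated mouse 1, and the authors' values ran from 0.13 without saline replicate 2 to 0.54 without saline replicate 3. The summed signal of 6 cardiomyocyte markers was also lowest in saline-treated mouse 2 (28.5) and rhTM-treated mouse 2 (33.3), against 37.7 to 59.8 in the other 4 lungs. Of the 6, only Myh6 and Tnnt2 were each lowest in those 2 lungs. Its part in the Pdk4 values was not tested.

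Angptl4, a secreted inhibitor of lipoprotein lipase, was the steadiest of the 10. It gave 50.1, 46.4 and 48.8 with saline and 50.1, 49.3 and 53.2 with rhTM. The residual SD was 0.06 (log2), smaller than in all but 1.99% of genes, and the groups overlapped. The log2 fold change was 0.07 (SE 0.11, fold 0.877 to 1.26), and 0.09 in the authors' values (SE 0.09, exact permutation p = 0.10), again without overlap.

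Txnip, which binds thioredoxin and restrains glucose uptake, gave 66.5, 61.3 and 69.3 with saline and 75.5, 63.0 and 57.6 with rhTM. The rhTM-treated mice again held both extremes. The log2 fold change was -0.01 (SE 0.14, fold 0.783 to 1.25), and 0.04 (SE 0.13) by the authors' table. Its second, dimmer probe gave -0.30 (SE 0.17, limma adjusted p = 0.9999), and -0.05 (SE 0.20) in the authors' values.

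Cdkn1a encodes p21, an inhibitor of cyclin-dependent kinases that is induced by p53 and also by glucocorticoids and FOXO factors. Its signal was 11.3, 13.9 and 13.0 with saline and 13.5, 12.3 and 10.5 with rhTM. The ranges overlapped, with a log2 fold change of -0.07 (SE 0.15, fold 0.743 to 1.22), or -0.16 (SE 0.13) in the authors' values.

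Across the 6 lungs, Fkbp5 and Angptl4 followed each other most closely. Of 45 pairs of the 10 genes, 0 passed Benjamini-Hochberg adjustment and 4 had an unadjusted exact permutation p under 0.05. With 6 arrays a lone pair could not have passed, however close. For Fkbp5 and Angptl4 the Pearson r was 0.986 (two-sided exact permutation p = 0.0042, adjusted p = 0.188) and Spearman's rho was 1 (exact permutation p = 0.0028, adjusted p = 0.125). Without the 2 arrays farthest from the Fkbp5 median, r was 0.923. Cdkn1a ran opposite to Fkbp5 (r = -0.868, exact permutation p = 0.0208, adjusted p = 0.438; rho = -0.829, exact permutation p = 0.0583, adjusted p = 0.525), but r was -0.486 without the 2 farthest arrays. No correlation was computed within the slides, which held 4 and 2 arrays. The 2 arrays of slide 2, saline-treated mouse 1 and rhTM-treated mouse 3, were the 2 highest for Fkbp5 (27.1 and 29.8). They were also the 2 highest for Angptl4 (50.1 and 53.2) and the 2 lowest for Cdkn1a (11.3 and 10.5). The part of the slide in these correlations was not tested. By lung, with no test, saline-treated mouse 2 was lowest for Fkbp5, Zbtb16, Pdk4 and Angptl4, rhTM-treated mouse 3 was highest for Fkbp5, Tsc22d3 and Angptl4 and lowest for Hsd11b1, Txnip and Cdkn1a, and rhTM-treated mouse 1 was highest for Sgk1, Pdk4 and Txnip.

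**Figure D4:**
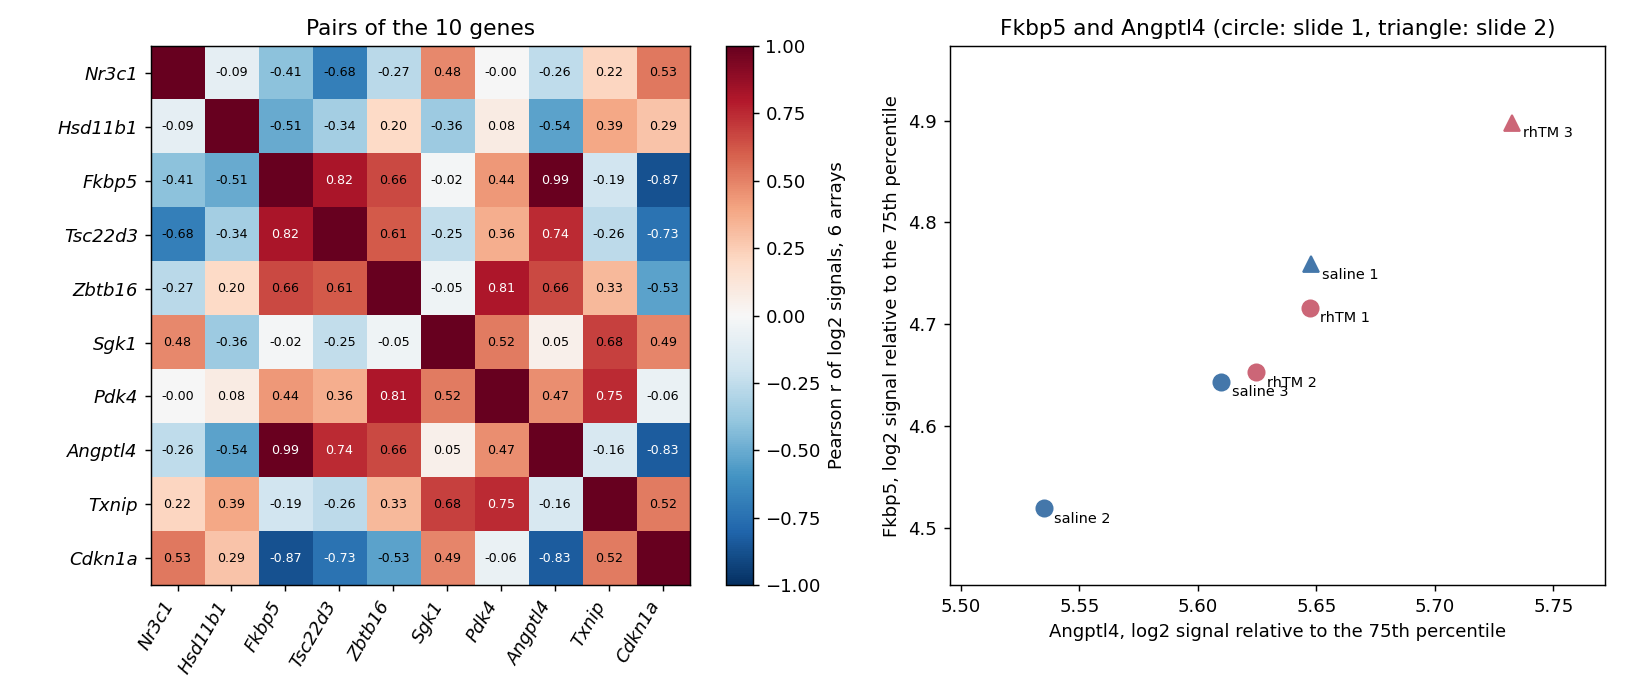
Left, Pearson r of log2 signals over 6 arrays for each pair of the 10 genes; right, Fkbp5 against Angptl4, log2 signal relative to the 75th percentile (blue saline, red rhTM; circles slide 1, triangles slide 2). Fkbp5 and Angptl4 reach r = 0.986, from saline-treated mouse 2 at the bottom to rhTM-treated mouse 3 at the top.

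The gene whose signal was most like each of the 10 over the 6 arrays was Ireb2 for Nr3c1 (r = 0.988), Slc22a6 for Hsd11b1 (0.988), Pbrm1 for Fkbp5 (0.993), Zfp619 for Tsc22d3 (0.994) and Retn for Zbtb16 (0.982). It was H2ac15 for Sgk1 (0.998), A430005L14Rik for Pdk4 (0.985), Uggt2 for Angptl4 (0.992), Camkk1 for Txnip (0.999) and Atcay for Cdkn1a (0.998). These are the highest of 16366 correlations over 6 points each. Sgk1 had 256 genes with r above 0.95, Fkbp5 had 76, Angptl4 had 40 and Hsd11b1 had 8.

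Among receptor partners, chaperones and coregulators, 0 of 17 genes tested passed the adjusted test, with 8 higher in mean. The median log2 fold change was -0.01. Nr3c2, the mineralocorticoid receptor, was the lowest, at 0.0712, 0.0814 and 0.0678 with saline and 0.0633, 0.0464 and 0.0417 with rhTM, close to background. The groups did not overlap (log2 fold change -0.56, SE 0.18, limma adjusted p = 0.9999), beside 2.57% of genes lower without overlap, but by the authors' table they did (-0.15). Of the 17 genes, 2 were lower and 0 higher without overlap. The chaperones Hsp90aa1 (0.18, SE 0.16) and Dnajb1 (0.08, SE 0.11) and the co-chaperone Fkbp4 (-0.19, SE 0.13) differed by less than 2 SE. Hsp90aa1 in the authors' values was higher without overlap (0.35), as were 9.68% of all genes, and 8 of the 17 were higher in mean. With it, 2 of the 17 were higher and 2 lower without overlap there, beside 12.0% of all genes lower.

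Of 26 other genes known to be induced by glucocorticoids, 0 passed and 17 were higher in mean. Among them, 1 was higher without overlap, beside 2.95% of all genes. The log2 fold changes of the 26 ran from -0.28 to 0.89, with the median at 0.10. Rgs2, a regulator of G protein signalling, was 14.8 ± 1.53 with saline and 18.9 ± 2.13 with rhTM (SD, n = 3 each; log2 fold change 0.35, SE 0.14, limma adjusted p = 0.9999). The metallothionein Mt2 gave 0.37 (SE 0.20), the sulphotransferase Sult1a1 -0.28 (SE 0.25) and the sodium channel subunit Scnn1a -0.15 (SE 0.17). Of 15 inflammatory genes known to be repressed, 0 passed and 6 were higher in mean (median -0.07). The neutrophil chemokine Cxcl2 was 0.706, 0.609 and 0.684 with saline and 2.29, 0.725 and 0.953 with rhTM, without overlap (log2 fold change 0.81, SE 0.40, limma adjusted p = 0.9999), beside 2.95% of genes higher without overlap, but in the authors' values the groups overlapped (0.78). The cytokine Tnf gave -0.45 (SE 0.23), the adhesion molecule Icam1 -0.54 (SE 0.28) and the prostaglandin synthase Ptgs2 0.12 (SE 0.13), which turned to -0.05 in the authors' values. There 17 of the 26 induced and 5 of the 15 repressed genes were higher in mean. Without overlap, 4 of the 26 were higher and 2 lower there, and 1 of the 15 was higher and 1 lower. The shares of all genes were 9.68% higher and 12.0% lower.

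**Figure D5:**
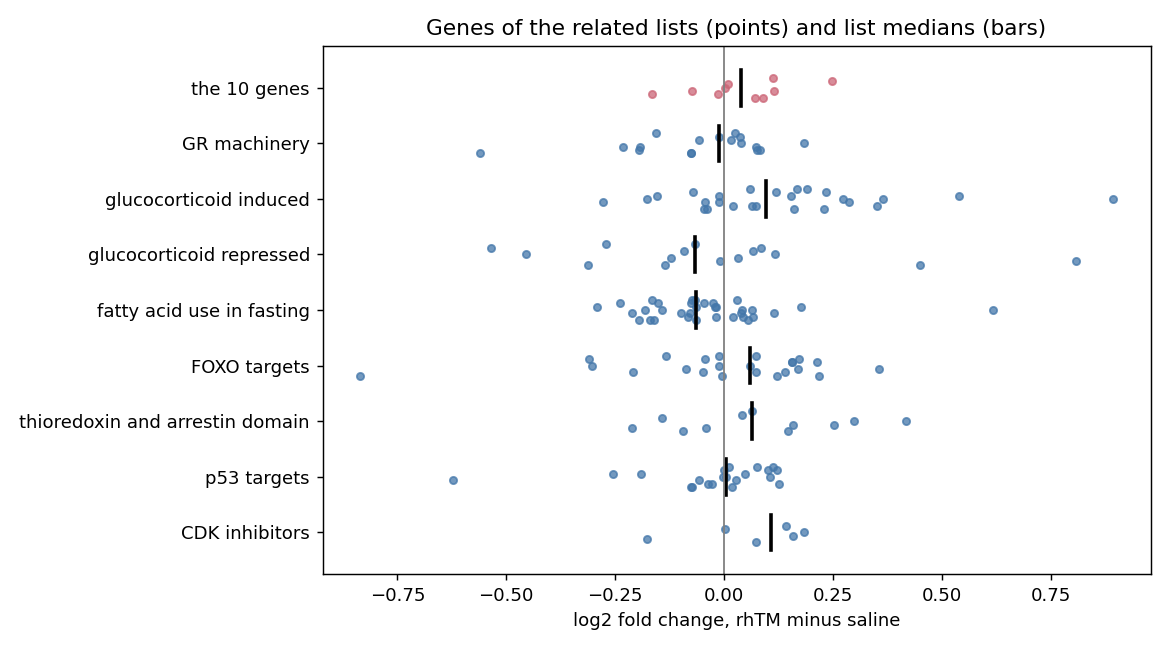
Log2 fold change, rhTM minus saline, of each tested gene of the related lists, with a bar at each list median, by the scanner output. The medians lie between -0.07 and 0.11, and the 10 genes span -0.17 to 0.25.

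Of 34 tested genes of fatty acid use, 0 passed and 11 were higher in mean (median -0.06), against 18 in the authors' values. The coactivator Ppargc1a gave 0.62 (SE 0.55), the Pdk4 relative Pdk2 -0.29 (SE 0.20) and the lipase Lipe -0.24 (SE 0.17), with 1.17 for Ppargc1a, -0.27 for Pdk2 and -0.04 for Lipe in the authors' values. Of 23 FOXO factors and targets, 0 passed and 12 were higher in mean (median 0.06), against 16 in the authors' values. The insulin receptor substrate Irs2 gave 0.36 (SE 0.32), Sesn3 0.17 (SE 0.12), the gluconeogenic enzyme Pck1 -0.84 (SE 0.45) and the insulin receptor Insr -0.30 (SE 0.18). Irs2 in the authors' values was higher without overlap (0.77), as were 9.68% of all genes, and Insr turned to 0.16.

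Of 11 partners and relatives of Txnip, 0 passed and 7 were higher in mean (median 0.06), against 6 in the authors' values. The glucose transporter Slc2a1 gave 0.42 (SE 0.21). Arrdc4 gave 0.30 (SE 0.23) by its brighter probe and -0.08 by the other, and Arrdc2 -0.21 (SE 0.25) and Mlx -0.14 (SE 0.12). The authors' values had Slc2a1 higher (0.48) and Arrdc2 (-0.53) and Mlx (-0.20) lower without overlap, among 3 higher and 3 lower of the 11, beside 9.68% and 12.0% of all genes. Of 21 p53 genes, 0 passed and 12 were higher in mean (median 0.0039), against 8 of 20 in the authors' values. Of those 20, 2 were higher and 5 lower without overlap, beside 9.68% and 12.0% of all genes. Mdm2, which degrades p53, gave 0.13 (SE 0.12) by its brighter probe and -0.01 by the other, Btg2 0.11 (SE 0.12) and Rrm2b -0.26 (SE 0.19), which turned to 0.16 in the authors' values. Eda2r was well above background on the 3 saline arrays and on 0 of the 3 rhTM arrays, so it entered the test through the saline group and no fold is given. Of 6 other inhibitors of cyclin-dependent kinases, 0 passed and 5 were higher in mean (median 0.11), among them Cdkn2b (0.18, SE 0.21) and Cdkn2a (0.16, SE 0.20), and Cdkn1c gave -0.18 (SE 0.29). Of the 6, 3 were higher in mean in the authors' values, Cdkn2a turned to -0.23 and Cdkn1c was lower without overlap (-0.54), as were 12.0% of all genes.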

How the data were processed

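Each of the 6 arrays measured the lung RNA of 1 mouse (saline 3, rhTM 3). The deposited scanner files hold spot intensity values made by the authors with Feature Extraction (10.7.3.1 per the file headers, 9.1 per the labels), background-subtracted and not normalised between arrays. The deposited table holds the authors' intensity values of the same arrays on the same linear, unscaled scale (column medians 77.9 to 91.7), averaged per probe, with 2 columns exchanged; it was scaled in the same way here. Control and flagged spots were left out (398 probes lost all spots on some array), spots of a probe averaged, and log2 values centred on the 75th percentile of each array. Probes well above background on all 3 arrays of a group were tested, the brightest standing for its gene. RefSeq accessions named 32989 of 56605 probes (22907 genes). limma 3.58.1 (R 4.3.3) compared groups with no covariate, and the adjusted p threshold was 0.05. The script was tested on simulated data.

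The members, lists and alternatives were chosen with earlier results of these data known. Named were the 10 members, the 2 genes of each list with the smallest p in each direction, and the gene most like each member. A gene named by this rule is not reported here. Alternatives were background correction, normalisation, the authors' table, filters, slide, replicate block, probe averaging and leaving out arrays. Replicate numbers of the 2 groups did not pair the mice.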

Additional observations from a re-analysis of the deposited data

How the results depend on the processing

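All 10 genes were well above background on all 6 arrays, and each group held 3 arrays. Over 24 alternatives, 33 of 240 values of the 10 genes turned direction, and 54 of the other 207 equalled the main value by construction. These were all 10 genes under the filters, the replicate block, the scanner slide block and the methods' t-test. The 4 genes with 1 probe under probe averaging made up the rest. Of the 10 genes, 0 were called in any alternative. The methods' t-test called 0 genes after Benjamini-Hochberg, with 340 at an unadjusted p under 0.05. At the methods' fold and p thresholds 1 gene passed by it and 6 by limma, 0 of them among the 10. With a replicate block, 0 genes were called by limma (376 at an unadjusted p under 0.05, against 306 without it). The deviations of same-numbered mice from their group means correlated over genes at -0.30, 0.44 and -0.45. Leaving out each array in turn, limma called 0 genes, with 207 to 1378 at an unadjusted p under 0.05. In the authors' values limma called 0 genes (2279 at an unadjusted p under 0.05), but 562 (443 higher, 119 lower) without rhTM replicate 1 and 432 (187 higher, 245 lower) with slide as a block. Both were added after seeing the data. In that table the 3 saline arrays lie on slide 1 and rhTM replicates 2 and 3 on slide 2. The slide block therefore sets rhTM replicate 1 alone against the 3 saline arrays, assuming that it varies like the others, and without rhTM replicate 1 treatment and slide cannot be told apart.

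Some log2 fold changes turned direction, and the cause was not tested. Quantile normalisation gave -0.059 for Tsc22d3 and -0.030 for Zbtb16, the percentile over probes above background -0.020 and -0.015, and the mean of probes -0.036 for Zbtb16. The authors' values gave -0.11 for Nr3c1 and 0.037 for Txnip, and leaving out both exchanged arrays -0.016 and 0.016. The authors' values with slide as a block, rhTM replicate 1 alone against saline, gave 0.23 for Txnip and 0.051 for Cdkn1a. This setting also gave Sgk1 (0.56) and Pdk4 (0.58) their highest values of any alternative, without turning their direction. Leaving out each array in turn gave -0.10 to 0.091 for Tsc22d3, -0.11 to 0.076 for Zbtb16, -0.13 to 0.29 for Pdk4, -0.12 to 0.072 for Txnip and -0.16 to 0.026 for Cdkn1a. It gave 0.030 to 0.14 for Nr3c1, -0.21 to -0.11 for Hsd11b1, 0.044 to 0.17 for Fkbp5, 0.060 to 0.36 for Sgk1 and 0.038 to 0.096 for Angptl4. In the authors' values Nr3c1 gave -0.071, -0.14 and -0.12 without saline replicates 1, 2 and 3, and -0.17, -0.056 and -0.11 without rhTM replicates 1, 2 and 3. Txnip gave 0.021, 0.00013 and 0.089 without saline replicates 1, 2 and 3, and 0.033 and 0.14 without rhTM replicates 2 and 3. Sgk1 gave -0.095 without rhTM replicate 1. List medians moved without both exchanged arrays, to 0.24 for glucocorticoid-induced and -0.070 for p53 genes. They moved in the authors' values to 0.0067 for fatty acid use, -0.10 for p53 genes and -0.059 for inhibitors of cyclin-dependent kinases. Leaving out each array gave -0.079 to 0.011 for receptor partners, -0.045 to 0.060 for p53 genes, -0.088 to 0.042 for glucocorticoid-repressed genes and -0.016 to 0.098 for FOXO genes. It gave 0.063 to 0.19 for glucocorticoid-induced genes and -0.091 to -0.019 for fatty acid use. For partners and relatives of Txnip it gave 0.00017 to 0.11, and for inhibitors of cyclin-dependent kinases 0.034 to 0.16. The glucocorticoid-induced median was 0.19 in the authors' values, against 0.096.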
